A study of Mus musculus with 8 samples.

Results

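The clustered protocadherin locus lies on mouse chromosome 18 and holds the Pcdha, Pcdhb and Pcdhg gene clusters in a row. Its CpGs were those of the interval from just before the first Pcdha gene to just past the last Pcdhg gene, with both strands of a CpG merged, that had 10 or more reads in at least 3 mice of each group. Of the 3407 CpGs listed for any mouse in this interval, 817 met the rule, out of 1278034 CpGs on the autosomes that met it, and they ran from 36930318 to 37842723 (mm10). Of these 817 CpGs, 170 belonged to Pcdha, 117 to Pcdhb, 444 to Pcdhg and 86 lay outside the 3 clusters, and 666 had 10 or more reads in all 8 mice.

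Enhanced reduced representation bisulfite sequencing, which reads methylation in CpG-rich restriction fragments, was applied to DNA of hematopoietic stem cells. The cells were uncultured bone marrow cells sorted as Lin-, c-Kit+, Sca-1+, Flk2-, CD48- and CD150+, from C57BL/6 mice with 1 library per mouse. The knockout group was 4 mice of genotype Atg12fl/flMx1-cre (mice 25, 28, 45 and 46), in which Cre comes from the interferon-inducible Mx1 promoter, active also outside blood cells. The control group was 4 mice (1, 34, 36 and 37) whose genotype label reads WT, while the design text gives them floxed Atg12 alleles, and these data do not settle whether they carry loxP sites. Both groups had poly(I:C), the inducer of Mx1-Cre, injected at 4 weeks of age, and cells were collected 2 to 3 months afterwards. The deletion itself was not measured in these data, and methylation alone gave no check of the sorted cell type. Atg12 is a small ubiquitin-like protein that, once joined to Atg5, takes part in building autophagosomes, and the comparison asks whether methylation of the locus differs between stem cells with and without it.

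Clustered protocadherins are cadherin-family adhesion molecules of the cell surface, known above all from neurons, where each cell uses its own combination of them. In the Pcdha and Pcdhg clusters every gene has its own promoter and a large variable first exon, which is spliced to a set of constant exons shared by the whole cluster, while Pcdhb genes have a single exon. The alternate genes, those other than the C-type genes at the end of Pcdha and Pcdhg, are chosen at random in neurons, and methylation of their promoters and first exons is known to go with silence of the promoter and loss of CTCF binding. C-type genes (Pcdhac1, Pcdhac2, Pcdhgc3, Pcdhgc4 and Pcdhgc5) are, for the most part, used more evenly among neurons.

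By the RefSeq gene table the Pcdha cluster ran from 36930285 to 37188897 (258.6 kb, 14 genes), Pcdhb from 37264998 to 37521419 (256.4 kb, 22 genes) and Pcdhg from 37661775 to 37841873 (180.1 kb, 22 genes). That table gives gene ends without exons, so a variable exon was taken as the window from 500 bp before to 2500 bp after the lower coordinate of each gene, from which the clusters are transcribed. The stretch from the last such window to the shared upper coordinate stood for the constant exons and includes their introns. The locus was well covered, with a median of 123 reads (control 37) to 176 reads (knockout 46) per member CpG, and between 739 members (knockout 45) and 814 members (knockout 25) reached 10 reads. The libraries differed in ways that touch these values. The median coverage of CpGs at 95% or more in every mouse, relative to that of CpGs at 5% or less in every mouse, was 0.242 to 0.396 in knockouts and 0.176 to 0.554 in controls, lowest in control 34 and, among knockouts, in knockout 25. Chromosome Y held 7.896 to 9.007 of every 10000 listed cytosines in knockouts and 1.155 to 1.826 in controls, so that genotype and this Y content cannot be told apart.

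The locus stood at intermediate methylation in every mouse. Its mean level, over CpGs read in all 8 mice and with each CpG counted equally, was 42.9, 45.6, 46.6 and 45.2% in knockouts 25, 28, 45 and 46, against 45.9, 41.7, 45.7 and 46% in controls 1, 34, 36 and 37. The groups overlapped, and the lowest mouse of each, knockout 25 and control 34, was also the mouse of its group with the lowest coverage of methylated DNA. The part of that coverage in the level was not tested. Group means were 45.1 ± 1.56% in knockouts and 44.8 ± 2.11% in controls (SD, n = 4 each), a difference far inside the spread between mice. Over all autosomal CpGs the same measure was 30.5 ± 0.268% in knockouts and 30.6 ± 0.654% in controls.

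Single CpGs were spread over the whole scale rather than gathered at its ends. Of the 817 CpGs, 368 (45.04%) had a mean level from 20 to 80%, against 7.35% of all autosomal CpGs. Under 5% lay 162 of them (19.8%, against 56.2% of autosomal CpGs), and over 95% lay 63 (7.71%, against 19.3%). Intermediate levels were most common at the starts of the alternate Pcdha and Pcdhg genes, where 263 of 369 CpGs (71.3%) lay from 20 to 80% and 2 lay under 5%. Since DNA of many cells was pooled in each library, partial methylation of every cell and full methylation of some cells or alleles cannot be told apart. These shares are descriptions of CpGs that sit near each other on the same fragments, and no test was made between the locus and the autosomes.

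**Figure D1:**
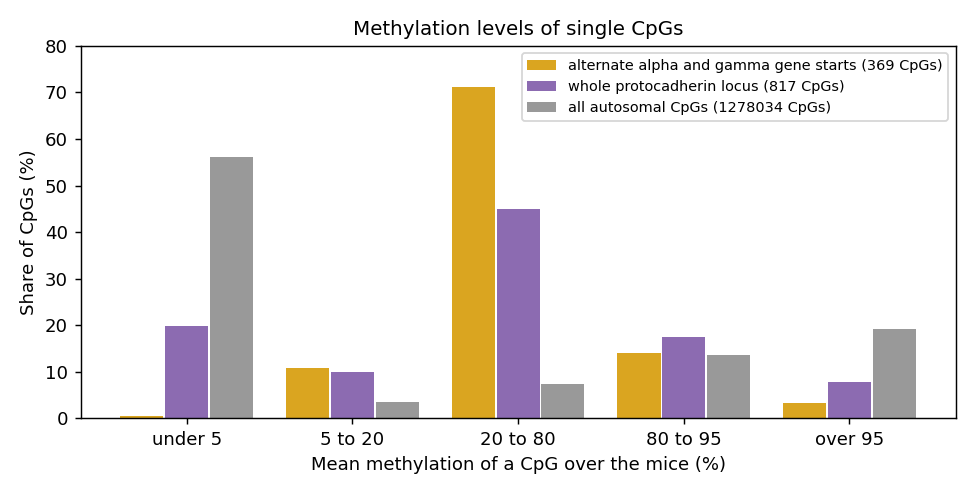
Share of CpGs (%, vertical axis) in 5 ranges of mean methylation over the mice (%, horizontal axis), for the starts of alternate Pcdha and Pcdhg genes (369 CpGs), the whole locus (817) and all autosomes (1278034). The 20 to 80% range holds 71.3% of alternate-start CpGs and 45.04% of locus CpGs, against 7.35% of autosomal CpGs.

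CpGs of the locus were also set beside autosomal CpGs in the same range of CpG density, the number of CpGs around them. The ranges are wide, and densities inside a range were not matched. Over all member CpGs the median density was 18 in the locus and 25 on the autosomes. Among CpGs with 20 to 39 CpGs listed in the 500 bp around them, those of the locus averaged 22.3 ± 2.13% in knockouts and 22.1 ± 1.60% in controls, and without the C-type gene starts 39.9 ± 3.78% in knockouts and 38.6 ± 2.51% in controls. Autosomal CpGs outside the locus in the same range averaged 7.28 ± 0.176% in knockouts and 7.32 ± 0.294% in controls. At 1 to 9 CpGs in 500 bp the locus was at 70.6 ± 1.81% in knockouts and 69.9 ± 2.27% in controls, below the 82.0 ± 0.606% in knockouts and 82.2 ± 1.59% in controls of other autosomal CpGs. At 10 to 19 CpGs in 500 bp, which holds the most CpGs of the locus (267), the locus was at 60.4 ± 1.801% in knockouts and 60.3 ± 2.93% in controls, close to the 59.1 ± 0.609% in knockouts and 59.3 ± 1.27% in controls elsewhere. At 40 or more, 23 CpGs of the locus stood at 0.13 ± 0.09% in knockouts and 0.184 ± 0.176% in controls, against 1.02 ± 0.0342% in knockouts and 1.01 ± 0.0542% in controls elsewhere. These were the same 23 CpGs with the C-type gene starts left out, and they were not split between the clusters and Taf7. That gene lies outside the clusters and holds 31 CpGs, at 0.217 ± 0.203% in knockouts and 0.243 ± 0.298% in controls. By these ranges the locus lay above other autosomal CpGs at 20 to 39, below them at 1 to 9 and near them at 10 to 19. At 40 or more it also lay below them, but mostly on CpGs outside the clusters. Apart from C-type starts, the clusters held few CpGs under 5%, with 1 in Pcdhb genes, 2 at Pcdhg alternate starts and 3 in the Pcdhg constant stretch. Outside the clusters 34 were under 5%, 31 of them at Taf7. The comparison at this density is therefore not one of protocadherin genes. The 296 CpGs of intermediate level read in all 8 mice had a median SD between mice of a group of 16.6 percentage points, against 16.7 for 72628 such CpGs elsewhere on the autosomes. Levels of single CpGs in the locus therefore varied between mice about as much as those of other autosomal CpGs of intermediate level.

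**Figure D2:**
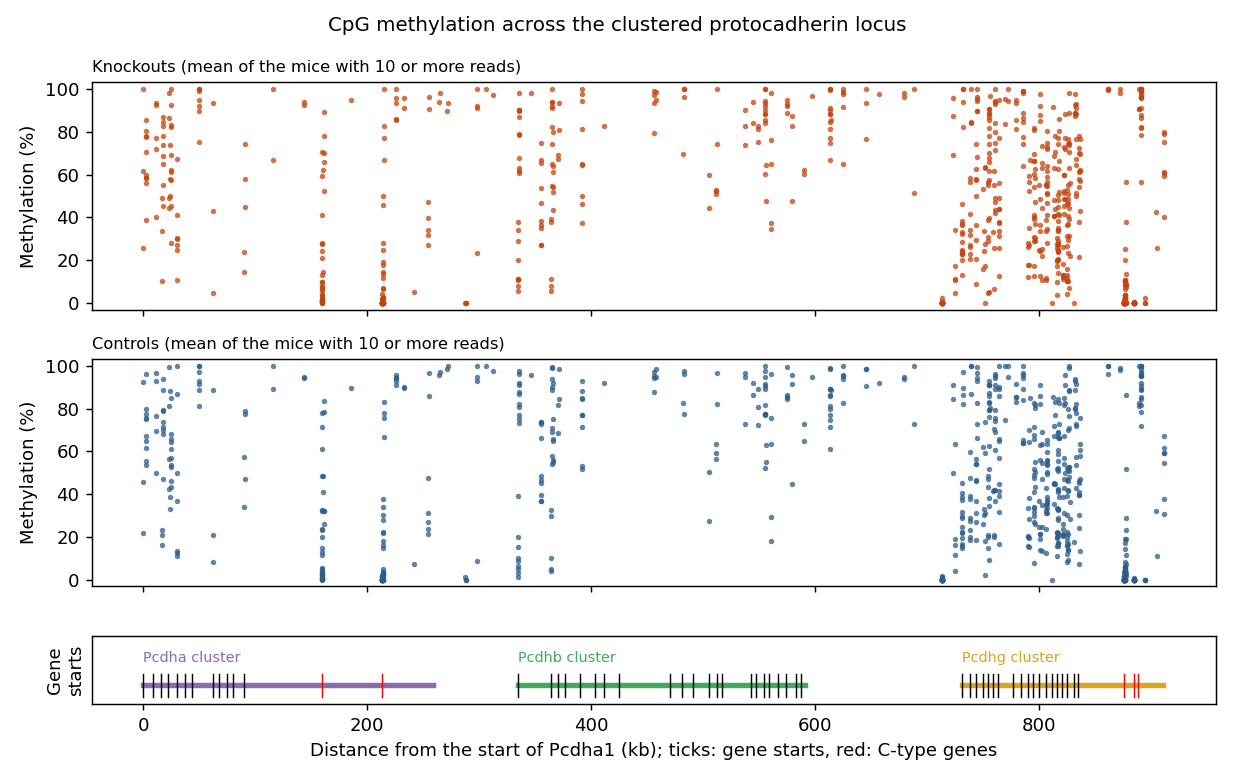
Methylation (%) of each member CpG against distance from the start of Pcdha1 (kb), as the mean of the knockouts (top) and of the controls (middle), with gene starts as ticks on the 3 cluster bars (bottom; C-type genes in red). CpGs at the alternate genes fill the range between 0 and 100% in both groups, while the C-type genes and the region of Taf7 before the Pcdhg cluster hold most of the points near 0%.

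The clusters differed more from each other than the genotypes did. Pcdha averaged 39.4 ± 1.75% in knockouts and 39.1 ± 1.14% in controls, and Pcdhg 42.4 ± 1.64% in knockouts and 41.9 ± 2.92% in controls. Pcdhb, which has no C-type genes, was highest at 65.7 ± 1.69% in knockouts and 66.8 ± 2.59% in controls. In each cluster the groups overlapped. Within Pcdha and Pcdhg the levels differed by the kind of gene start. Alternate starts of Pcdha averaged 62.2 ± 1.61% in knockouts and 61.1 ± 1.25% in controls, and those of Pcdhg 50.7 ± 1.95% in knockouts and 50.2 ± 4.04% in controls. C-type starts were low, at 15.4 ± 2.14% in knockouts and 16.1 ± 2.06% in controls for Pcdha, and at 9.51 ± 0.680% in knockouts and 9.26 ± 0.668% in controls for Pcdhg. CpGs between the gene starts were close to full methylation, at 93.2 ± 2.58% in knockouts and 93.0 ± 4.12% in controls for Pcdha (10 CpGs) and 89.8 ± 3.06% in knockouts and 89.3 ± 1.73% in controls for Pcdhg (13 CpGs). In Pcdhb the genes themselves stood at 67.4 ± 2.95% in knockouts and 67.3 ± 3.23% in controls, and the CpGs between them at 61.2 ± 2.59% in knockouts and 65.4 ± 2.87% in controls. All of these pairs of groups overlapped. These sets of CpGs also differed in density. The median number of CpGs in 500 bp was 30 and 27 at the C-type starts of Pcdha and Pcdhg. It was 16 and 18 at their alternate starts, and 9.5 and 5 between starts. By cluster it was 11 in Pcdhb, 19.5 in Pcdha and 19 in Pcdhg. The part of density in these levels was not tested.

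Few CpGs could be read in the constant stretches, 15 in each of Pcdha and Pcdhg, of which 10 and 11 were read in all 8 mice. The Pcdha stretch stood at 60.3, 68.6, 62.3 and 68.5% in knockouts 25, 28, 45 and 46, and at 63.6, 56.4, 58.8 and 64.8% in controls 1, 34, 36 and 37. The means were 64.9 ± 4.28% in knockouts and 60.9 ± 3.99% in controls, with overlap. The Pcdhg stretch stood at 55.3, 59.1, 66.7 and 54.8% in the knockouts and at 55.1, 53.1, 51.7 and 55.97% in the controls, so knockout 45 lay above the rest and the others overlapped. Its means were 59.0 ± 5.52% in knockouts and 54.0 ± 1.93% in controls.

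The constant stretches were patchworks rather than evenly methylated. In Pcdhg, 10 CpGs from 37822056 to 37822190 averaged 92.1 ± 3.30% in knockouts and 89.2 ± 4.39% in controls. A patch of 3 CpGs from 37825028 to 37825068, within all Pcdhg genes and after the start of Pcdhgc5, was at 0% in 7 mice and at 3.17% in knockout 25. The 2 CpGs at 37835602 to 37835656 stood at 86.9% in knockout 45 but between 0 and 37.1% in the other 7 mice. In Pcdha, the 7 CpGs from 37184983 to 37185869, the last patch before the shared end, averaged 52.4 ± 6.44% in knockouts and 47.6 ± 5.43% in controls. The patch of 2 CpGs from 37163240 to 37163352 averaged 93.4 ± 5.54% in knockouts and 89.9 ± 1.42% in controls.

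Methylation was graded along the gene starts. In the alternate Pcdha and Pcdhg genes it averaged 23.9 ± 4.22% in knockouts and 21.5 ± 8.37% in controls over the 500 bp before the start, and 30.5 ± 1.89% in knockouts and 33.8 ± 5.26% in controls over the first 250 bp after it. From 500 to 1000 bp inside it was 54.9 ± 1.71% in knockouts and 54.7 ± 3.41% in controls, and from 1000 to 1500 bp 70.2 ± 5.63% in knockouts and 67.0 ± 2.93% in controls. The profile was thus lowest before the start (9 CpGs of 3 genes) and highest from 1000 to 1500 bp inside in both groups. From 1500 to 2500 bp it was lower again, at 60.6 ± 2.20% in knockouts and 60.8 ± 2.12% in controls. Beta genes had a steeper profile by distance, on few CpGs and with partly different genes in each range. They stood at 23.9 ± 7.13% in knockouts and 19.9 ± 1.98% in controls from 0 to 250 bp (4 CpGs of 2 genes). From 500 to 1000 bp (13 CpGs of 4 genes) they were at 87.1 ± 5.10% in knockouts and 86.0 ± 4.40% in controls. From 1500 to 2500 bp they stood at 68.1 ± 5.97% in knockouts and 71.4 ± 3.27% in controls. At 3 C-type genes (Pcdhac2, Pcdhgc3 and Pcdhgc4) the low level reached farther in. From 500 to 1000 bp their 21 CpGs averaged 4.43 ± 3.56% in knockouts and 2.21 ± 1.25% in controls. Pcdhac1 and Pcdhgc5 had no CpG in that range. From 0 to 500 bp Pcdhac1 stood at 28.8% in knockouts and 38.3% in controls, and Pcdhgc5 (2 CpGs) at 95.4% in knockouts and 82.0% in controls. The C-type level was higher from 1500 to 2500 bp, at 55.1 ± 2.00% in knockouts and 48.8 ± 2.25% in controls. That range includes CpGs of Pcdhac1 and of the methylated Pcdhgc5, so partly other genes fill it than the range from 500 to 1000 bp. More than 1000 bp inside, the 5 CpGs of Pcdhgc5 averaged 90.8 ± 9.46% in knockouts and 91.0 ± 1.48% in controls. From 1500 to 2500 bp (15 CpGs of 3 genes) the knockouts (52.5 to 57.0%) lay just above the controls (46.9 to 51.9%). It was the one distance range of any gene class in which the groups did not overlap. This range was singled out from all those examined after the values were seen, and it carries no test.

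Different genes fill each distance, so the gradient was also followed within genes. In 12 genes at least 3 CpGs could be read in all 8 mice both within 500 bp of the start and from 1000 to 2500 bp inside. The inner CpGs were more methylated in all 8 mice in 10 of these genes, and in 7 of 8 mice in Pcdhgb4 and Pcdhgb5. The mean rise over the mice was 65.1 points at Pcdhb1 and 40.6 at Pcdhb2. It ran from 39.5 to 64.9 points at the Pcdhga genes and from 11.2 to 37.2 at the Pcdhgb genes. Within genes, Pcdhb1 and Pcdhb2 thus rose about as much as the Pcdhga genes. Pcdhb1 had 78.6 ± 6.22% inside and 18.7 ± 2.26% near its start in knockouts, and 82.6 ± 8.69% inside and 12.3 ± 2.32% near its start in controls. Pcdhga1 had 97.9 ± 2.39% inside and 28.8 ± 5.84% near its start in knockouts, and 88.4 ± 4.74% inside and 27.8 ± 4.26% near its start in controls. These were the largest contrasts of the 12 genes, and the smallest was 6.69 points at Pcdhgc3 (mean of the 8 mice). In both genes the inner CpGs also had fewer CpGs around them. The median within 500 bp was 14 inside and 21 near the start of Pcdhb1, and 7 inside and 20 near the start of Pcdhga1. It was also lower inside in the others of the 12 genes, except Pcdhgb4 (27 inside, 14 near the start) and Pcdhgb5 (32 inside, 24 near the start). The part of density in the gradient was not tested.

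**Figure D3:**
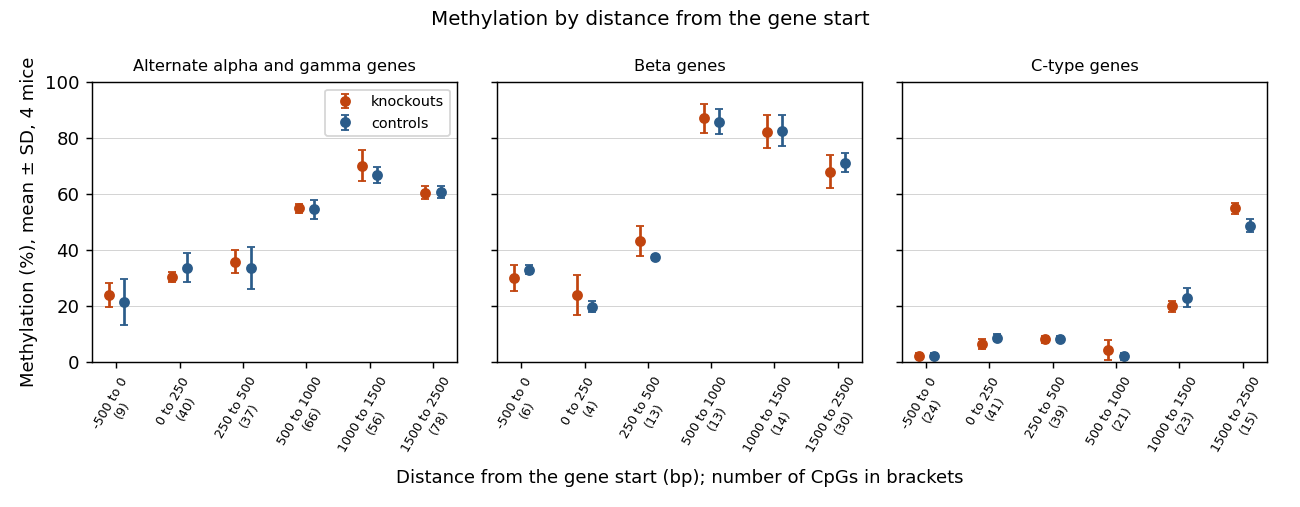
Mean methylation (%, ± SD over 4 mice) against distance from the gene start (bp, number of CpGs in brackets) for alternate Pcdha and Pcdhg genes, beta genes and C-type genes, in knockouts (orange) and controls (blue). Alternate genes climb to 70.2% in knockouts and 67.0% in controls at 1000 to 1500 bp, and beta genes reach 87.1% in knockouts and 86.0% in controls at 500 to 1000 bp. The 3 C-type genes read at 500 to 1000 bp stand at 4.43% in knockouts and 2.21% in controls.

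Gene by gene, 38 of the 58 protocadherin genes in the table had at least 3 CpGs read in all 8 mice in their start window, and 20 had fewer, 14 of them with no member CpG at all. Measured were 7 of 12 alternate Pcdha genes, 8 of 22 Pcdhb genes, 11 of 12 gamma-A genes, all 7 gamma-B genes and all 5 C-type genes. Of the 33 alternate and beta genes measured, 31 had a mean level from 20 to 80% and 2 lay over 80%. Levels of gene starts are given as methylated reads over all reads of the window.

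The C-type genes split into a methylated one and 4 with low levels. Pcdhgc4 (18 CpGs) was nearly free of methylation, at 0.19 ± 0.18% in knockouts and 0.13 ± 0.12% in controls, and Pcdhgc3 (59 CpGs) stood at 2.11 ± 0.437% in knockouts and 2.08 ± 1.15% in controls. Pcdhac2 (45 CpGs) was at 6.98 ± 1.11% in knockouts and 7.48 ± 1.10% in controls. Pcdhgc5 was the exception among them, at 83.6, 99.6, 89.5 and 96.5% in knockouts 25, 28, 45 and 46, and at 91.7, 81.3, 91.1 and 94.9% in controls 1, 34, 36 and 37. Its 11 member CpGs, 7 of them read in all 8 mice, lay 250 to 2473 bp inside the gene, and none lay nearer to its start. The groups overlapped for each of these genes.

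Pcdhac1 varied between mice, mainly among controls. Its window, with 34 CpGs, had 10.9, 13.7, 15.3 and 13.0% in knockouts 25, 28, 45 and 46, against 26.4, 9.54, 24.2 and 14.6% in controls 1, 34, 36 and 37. All 4 knockouts lay between the lowest and highest control, and the difference in means was -5.48 percentage points (adjusted p = 0.859, moderated quasi-binomial model with Benjamini-Hochberg adjustment over all autosomal gene ends). With each CpG counted equally in place of each read, the means were close, at 23.1% in knockouts and 23.7% in controls. The 16 CpGs in the 500 bp before its start averaged 3.45 ± 1.24% in knockouts and 3.45 ± 1.49% in controls. In the 500 bp after the start, 13 CpGs averaged 28.8 ± 6.30% in knockouts and 38.3 ± 6.71% in controls. The 5 CpGs more than 1000 bp inside went the other way, with 71.1 ± 6.69% in knockouts and 50.5 ± 6.70% in controls. Over those 5 CpGs the knockouts (64.4 to 80%) did not overlap the controls (41.3 to 57.0%), and they are part of the 15 C-type CpGs from 1500 to 2500 bp above. These values were singled out after they were seen and carry no test of their own.

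Among the alternate Pcdha genes the highest starts were Pcdha2 (77.7%, mean of the 8 mice), Pcdha3 (70.8%) and Pcdha1 (66.6%). Pcdha5 was lowest at 25.4%, on 3 neighbouring CpGs from 36960888 to 36960897, and was followed by Pcdha8 at 53.5%. Neighbours in that order mostly did not differ beyond the spread between mice, since the SD over the 8 mice was 6.57 for Pcdha2, 5.69 for Pcdha3 and 7.56 for Pcdha1. In Pcdhb the highest were Pcdhb16 (80.2%), Pcdhb3 (79.5%) and Pcdhb17 (79.3%), which lay within 1 SD of each other. The lowest were Pcdhb2 (48.3%), Pcdhb1 (49.0%) and Pcdhb18 (60.3%). The CpGs of Pcdhb1 and Pcdhb2 began within 300 bp of the start, while those of Pcdhb16 and Pcdhb18 lay about 2 kb inside. In Pcdhg, besides Pcdhgc5, the highest were Pcdhga7 (81.9%) and Pcdhgb2 (75.4%). Besides the low C-type genes, Pcdhgb4 was lowest at 23.7%, and its neighbour in rank was Pcdhga2 at 30.1%. How the CpGs that could be read were placed along each gene differed, so the order of genes is an order of measured windows and not of promoters.

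**Figure D4:**
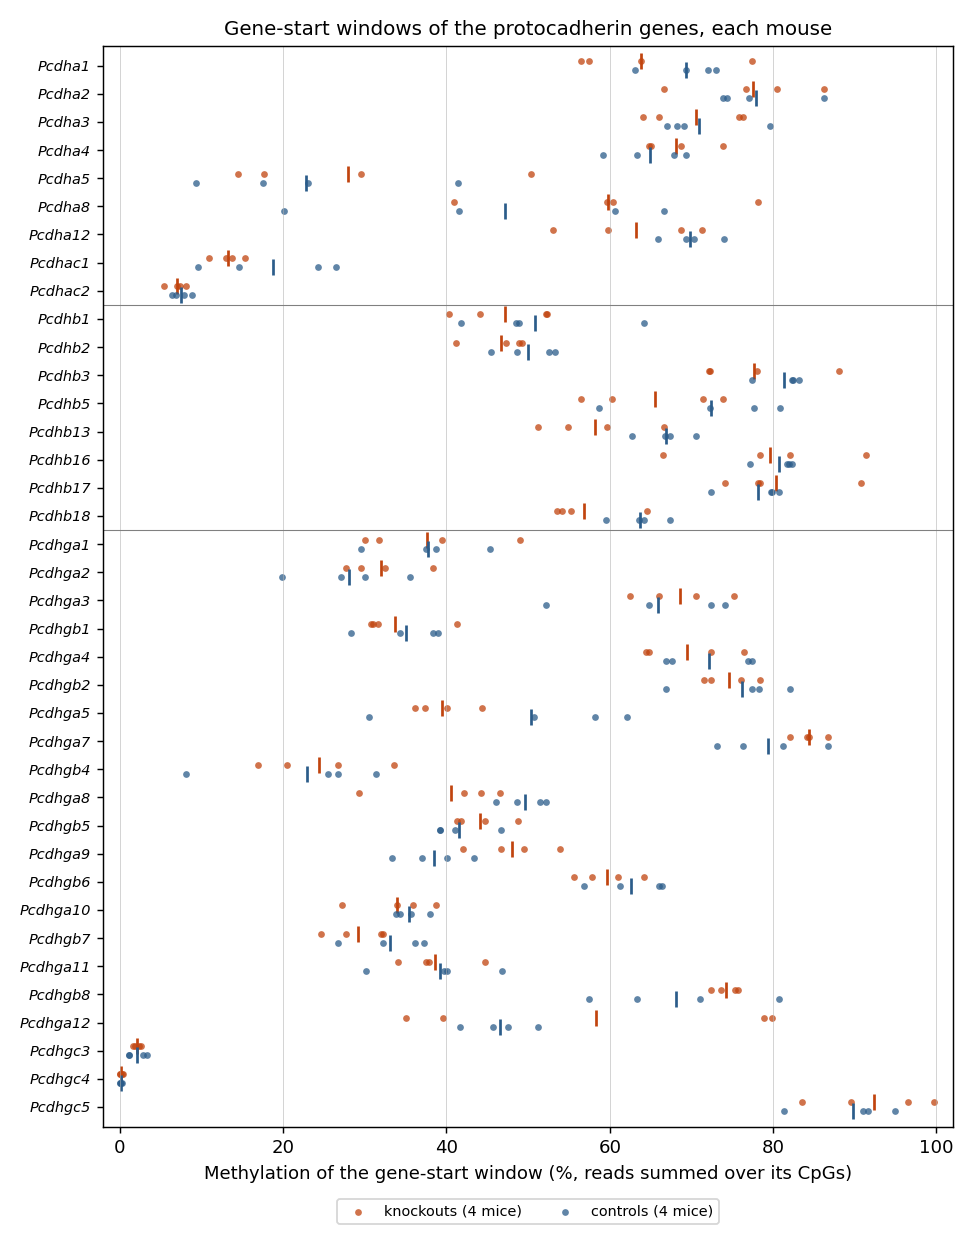
Methylation of the start window (%, reads summed over its CpGs) of the 38 measured protocadherin genes in genome order, with 1 point per mouse and a bar at each group mean, knockouts in orange above controls in blue. The points of both groups overlap for every gene, alternate and beta genes lie mainly from 20 to 80%, and Pcdhac1, Pcdhac2, Pcdhgc3 and Pcdhgc4 form the low end.

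By genotype, no start window passed the test. Of the 38 measured genes, 35 were tested: Pcdhgc3 and Pcdhgc4 were under the 5% floor for the mean level, and Pcdhgb8, a pseudogene, was not in the fit. Of these 35, 0 were called at an adjusted p under 0.05, with 0% called among all 4941 tested autosomal gene ends, and 1 had an unadjusted p under 0.05, against 5.77% of gene ends. With limma on log2 ratios of methylated to unmethylated reads the called number was also 0, and 0 had an unadjusted p under 0.05. In 0 of the 38 measured genes did the groups fail to overlap, against 3.72% of gene ends. The difference, knockout minus control, was negative in 23 and positive in 12 of the tested genes, with a median of -1.16 percentage points against -0.364 over all gene ends. With each CpG of a window counted equally in place of each read, it was negative in 19 and positive in 16. By reads it was under 5 points in size in 23 genes and 10 points or more in 3 (Pcdha8, Pcdhga12 and Pcdhga5). Its median size was 3.35 points, against 2.30 over all gene ends.

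The largest differences came with wide spread inside a group. Pcdha8, with 3 CpGs, had 60.4, 59.7, 78.2 and 40.9% in knockouts 25, 28, 45 and 46, against 66.6, 20.1, 60.6 and 41.6% in controls 1, 34, 36 and 37. Control 34 alone was far below the other mice, and the difference of 12.6 points had an adjusted p of 0.956 in the moderated quasi-binomial model. Without control 34 it was 3.50 points, without knockout 45 6.42, and without knockout 46 or control 1 it was 18.9 or 19.02 points. Pcdha12 was at 68.8, 59.8, 71.4 and 53.1% in the knockouts and at 65.9, 70.3, 74.0 and 69.4% in the controls, a difference of -6.63 points (adjusted p = 0.915, same model). Here knockouts 28 and 46 were low and the other 2 knockouts lay among the controls, and without knockout 46 the difference was -3.25 points. Pcdha1 was at 63.8, 57.4, 56.5 and 77.4% in the knockouts and at 73.0, 63.1, 69.4 and 72.0% in the controls, a difference of -5.59 points (adjusted p = 0.956, same model), with the highest value of all in knockout 46. It was -3.47 points without knockout 28, -3.17 without knockout 45 and -10.1 without knockout 46.

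In Pcdhb the mean was lower in knockouts at 7 of 8 measured starts, against 54.5% of all tested gene ends, and the family averaged 64.0 ± 3.03% in knockouts and 68.0 ± 2.93% in controls. With each CpG counted equally it was lower at 5 of 8, and Pcdhb1, Pcdhb17 and Pcdhb18 were higher in knockouts. Pcdhb13 had 59.7, 66.7, 51.3 and 54.9% in knockouts 25, 28, 45 and 46, against 70.6, 62.7, 67.4 and 66.8% in controls 1, 34, 36 and 37. Only knockout 28 lay above the lowest control, and the difference of -8.73 points had an adjusted p of 0.824 in the moderated quasi-binomial model. Pcdhb5 had 73.9, 71.4, 56.4 and 60.3% in the knockouts and 72.3, 58.7, 77.7 and 80.9% in the controls, a difference of -6.87 points (adjusted p = 0.950, same model). This was -3.83 points without knockout 45, -4.04 without control 37 and -11.4 without control 34. Pcdhb18 had 53.6, 64.6, 55.2 and 54.1% in the knockouts and 64.2, 67.4, 59.6 and 63.6% in the controls, a difference of -6.79 points (adjusted p = 0.859, same model). Knockout 28 stood among the controls and the other 3 knockouts below them. A coverage minimum of 20 reads, which leaves out some of its 5 CpGs and adds none, turned the difference at Pcdhb18 to 1.36 points.

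In Pcdhg, Pcdhga9 was the tested gene with the smallest p in the locus. It had 42.0, 53.9, 49.6 and 46.7% in knockouts 25, 28, 45 and 46, against 33.3, 36.97, 43.4 and 40.1% in controls 1, 34, 36 and 37. The groups overlapped only through knockout 25 and control 36, and the difference of 9.58 points had an unadjusted p of 0.0363 and an adjusted p of 0.824 in the moderated quasi-binomial model. Pcdhga5, with 5 CpGs, had 44.3, 37.4, 40.02 and 36.2% in the knockouts and 50.7, 30.5, 58.1 and 62.1% in the controls, a difference of -10.9 points (adjusted p = 0.927, same model). Control 34 was below all knockouts there and the other 3 controls above them, and the difference was -17.5 points without control 34 and -6.97 without control 37.

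Pcdhga12 was the measured start with the largest SD among knockouts (24.3 points, against 3.99 among controls). Its window had 39.6, 79.8, 78.9 and 35.04% in knockouts 25, 28, 45 and 46, against 41.6, 51.2, 47.5 and 45.7% in controls 1, 34, 36 and 37. Knockouts 28 and 45 stood far above the other 6 mice, and knockouts 25 and 46 below all controls, which leaves a difference of 11.8 points with an adjusted p of 0.957 in the moderated quasi-binomial model. It was 4.66 points without knockout 28 and 4.99 without knockout 45, but 18.1 without knockout 25 and 19.6 without knockout 46. The median of its 14 CpGs was 90.0% in knockout 28 and 100% in knockout 45, while it was 36.3% in knockout 46. Reads were fewest in control 37, with a median of 12 per CpG against 65 or more in every other mouse. All 14 CpGs lay from 1195 to 1380 bp inside the gene, and neighbouring CpGs on a fragment share reads.

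In 1 kb windows the picture was the same at a finer scale. Of 75 windows measured in the locus, 67 were tested, and 0 were called at an adjusted p under 0.05, as 0% were among 39903 autosomal windows. An unadjusted p under 0.05 was reached by 6 (8.96%), against 6.5% of all windows, and by 2 with limma on log2 ratios, which also called 0. The groups did not overlap in 3 windows (4.48%), against 3.48% of all windows. The difference was negative in 32 and positive in 35, with a median of 0.16 points against -0.26 over all windows, and a median size of 4.25 points against 2.91. The smallest adjusted p was 0.652.

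The 3 windows without overlap lay at Pcdhb1, Pcdhac1 and Pcdhga11. At the start of Pcdhb1 (37265001 to 37266000, 9 CpGs) the knockouts had 19.7, 24.2, 21.4 and 18.5% and the controls 13.4, 14.9, 15.1 and 11.8%, a difference of 7.13 points (unadjusted p = 0.0091, adjusted p = 0.652, moderated quasi-binomial model). All knockouts lay above all controls, with at least 1092 reads per mouse. When CpGs read in only 3 mice of a group were added to the window, the difference was 3.79 points (unadjusted p = 0.404, same model). At Pcdhac1, about 1.9 kb inside the gene (37092001 to 37093000, 3 CpGs), the knockouts had 69.5, 43.8, 70.8 and 52.1% and the controls 23.3, 30.9, 43.3 and 30.8%, a difference of 27.0 points (unadjusted p = 0.0385, adjusted p = 0.737, same model). Here knockout 28 and control 36 nearly met, and reads summed to only 65 to 236 per mouse. At Pcdhga11 (37757001 to 37758000, 8 CpGs) the knockouts had 58.0, 48.3, 62.4 and 51.2% and the controls 69.6, 64.2, 70.1 and 63.5%, a difference of -11.9 points (unadjusted p = 0.0342, adjusted p = 0.735, same model). Knockout 45 lay just below control 37.

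The other windows of smallest p in each direction overlapped between groups. Lower in knockouts were the windows at Pcdhb2 (37296001 to 37297000, -10.3 points), at Pcdhb13 (37442001 to 37443000, the same CpGs as its start window) and between Pcdhb14 and Pcdhb15 (37468001 to 37469000, -5.48 points). In the last of these, knockout 45 stood at 61.4% and the other mice between 83.3 and 100%, and without knockout 45 the difference was 1.98 points and without knockout 28 it was -10.9. At Pcdhb2 it was -5.63 points without knockout 45. Higher in knockouts were the windows in the last patch of the Pcdha constant stretch (37185001 to 37186000, 10.98 points), where control 34 was lowest at 21.3%, and at Pcdhga7 (37716001 to 37717000, 4.96 points), where control 34 was again lowest at 73.2%. Without control 34 these differences were 6.28 and 2.88 points. The adjusted p-values of these 5 windows ran from 0.735 to 0.772 in the moderated quasi-binomial model.

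**Figure D5:**
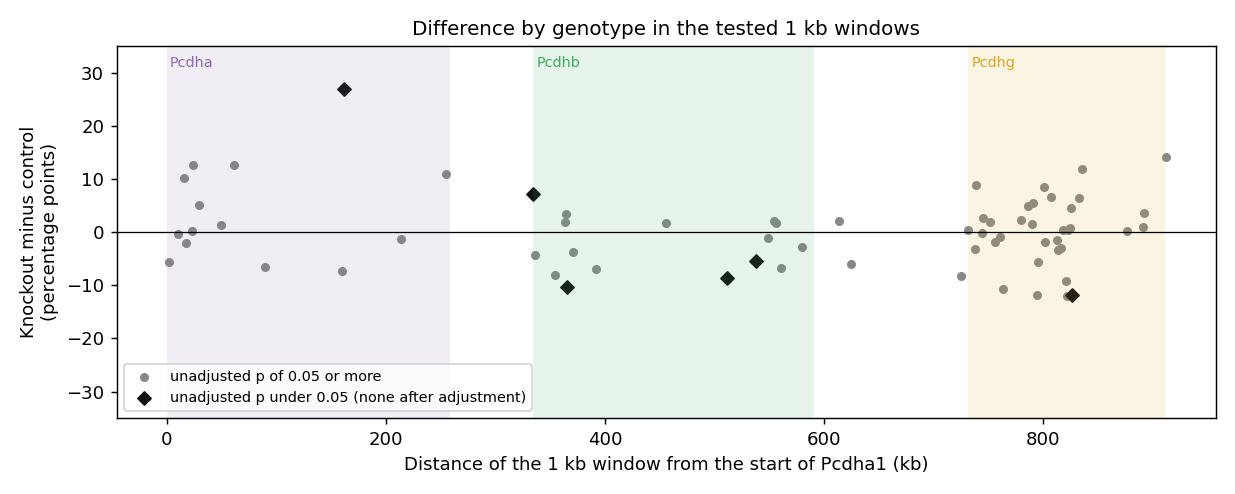
Difference in methylation, knockout minus control (percentage points), of the 67 tested 1 kb windows against their distance from the start of Pcdha1 (kb), with the clusters shaded. Diamonds mark the 6 windows with an unadjusted p under 0.05 (0 after adjustment), which lie on both sides of 0, with the highest, 27.0 points, at Pcdhac1.

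Of the 817 CpGs, 592 were tested one by one, and 0 were called at an adjusted p under 0.05, against 0.00735% of the 313039 autosomal CpGs tested. At an unadjusted p under 0.05 were 44 of them (7.43%), against 6.52%, and with limma on log2 ratios 26, with 0 called. The groups did not overlap at 18 CpGs (3.04%), against 3.11%, with 12 lower in knockouts (2.03%, against 1.54%) and 6 higher (1.01%, against 1.57%). Over both directions the share past either mark was near that of the autosomes. The median difference was -0.76 points, against -0.90 over all tested CpGs, and the smallest adjusted p was 0.537.

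Some single CpGs stood far apart between the groups without passing the test. In Pcdhac2, the CpG at 37144752, which lies 1074 bp inside the gene, had 0.495, 0, 0 and 0% in knockouts 25, 28, 45 and 46, against 24.0, 28.6, 2.26 and 33.7% in controls 1, 34, 36 and 37. All controls lay above all knockouts, though control 36 only just, and the adjusted p was 0.668 in the moderated quasi-binomial model. The CpG next to it, at 37144754, had at most 0.508% in a knockout, against 24.1, 29.2, 6.82 and 0% in the controls. In Pcdhga5 the CpG at 37695208 had 56.2, 34.4, 0 and 12.5% in the knockouts and 100% in controls 1, 34 and 36, while control 37 had fewer than 10 reads and was left out (adjusted p = 0.633, same model). In the opposite direction, in Pcdhb12, the CpG at 37436055 had 37.8, 61.7, 80.5 and 58.4% in the knockouts and 26.9, 14.5, 30 and 38.8% in the controls (adjusted p = 0.537, same model). In Pcdhgb5 the CpG at 37731728 had 86.2, 87.3, 100 and 94.9% in the knockouts and 54.4, 58.2, 75.8 and 62.7% in the controls, with no overlap (adjusted p = 0.739, same model). The others of smallest p were 37468068 between Pcdhb14 and Pcdhb15 (-14.0 points), 37716365 in Pcdhga7 (10.05 points) and 36948116 in Pcdha3 (13.0 points), all with overlapping groups.

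Outside the clusters the levels were mixed. Of the 86 CpGs there, 14 were over 95%, 20 from 80 to 95% and 5 from 5 to 20%, and 34 were under 5%, 31 of them at Taf7 (37640491 to 37644204), which encodes a subunit of the general transcription factor TFIID and lies between Pcdhb and Pcdhg. The CpGs at Taf7 averaged 0.217 ± 0.203% in knockouts and 0.243 ± 0.298% in controls. The remaining 3 lay between the Pcdha and Pcdhb clusters in the window from 37218001 to 37219000, at 0% in all 4 knockouts and at 0% in 3 controls, with 1.39% in control 36. Among CpGs outside the clusters 13 (15.1%) were from 20 to 80%, against 50.7% in Pcdhg, 48.7% in Pcdhb and 42.9% in Pcdha.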

How the data were processed

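Bisulfite sequencing of CpG-rich fragments was done in 8 mice, 4 knockouts and 4 controls, each library from a separate mouse. Per the file headers, the deposited tables give for each cytosine the coverage as a count of reads and the percent of those reads with C or T; no listed cytosine had under 10 reads. CASAVA 1.8.2, Bismark and mm10 are named in the submitters' processing notes. Duplicate removal and the handling of reads that match several places, which matters among close paralogs, are not stated there. Reads carry no molecular identifiers and are not independent molecules.

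Methylated reads were recovered as coverage times percent, rounded, and the strands of a CpG were added. The genes were those of RefSeq for GRCm38.p6, which gives no exons or strand. Regions (1 kb windows and gene ends, each with at least 3 CpGs) used CpGs with 10 reads in all 8 mice. A quasi-binomial logistic model on genotype, with overdispersion moderated by limma 3.58.1 in R 4.3.3 and not under 1, was fitted to every autosomal CpG, window and gene end with a mean level of 5 to 95%, with Benjamini-Hochberg adjustment over all of them at 0.05; summaries used Python 3.11.15. Means over groups of CpGs were given no test. A mouse under 10 reads was left out of that CpG's fit. On simulated reads a difference of 20 points was recovered for 0% of CpGs, 26.5% of windows and 65.5% of gene ends, and a 40-point difference for 1.01, 84.5 and 94.5%; with nothing changed, 0 CpGs, 1 window and 0 gene ends were called.

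The members, gene groups and tests were chosen with earlier results of these data known. Named were the C-type genes, the 3 genes of highest and lowest level and of largest difference in each cluster, and the 4 windows and 4 CpGs of smallest p in each direction. Alternatives were a minimum of 20 reads, each mouse left out, knockout 25 and control 34 left out together, limma on log2 ratios with 1 read added, no level filter, other CpGs in a region, a gene-start window from 250 bp before to 750 bp after the start, reads summed over CpGs, and coverage capped at the 99.9th percentile; the last, and each CpG counted equally in gene starts, were chosen after seeing the data.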

Additional observations from a re-analysis of the deposited data

Results flagged for a closer look

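In 8 of the 110 groups of 4 mice examined, among gene starts and groups of CpGs, a single mouse stood apart from the other 3 by more than Dixon's 95% critical gap. Chance gives about 1 in 20 groups, and here it was 7.27%. For the locus as a whole, control 34 was at 41.7%, below the nearest control at 45.7%. Control 34 was also high among controls at the start of Pcdha3 (79.7%, nearest control 69.1%) and low at Pcdhb3 (77.4%, nearest 82.4%) and Pcdhb17 (72.4%, nearest 79.7%). It had the lowest coverage of methylated relative to unmethylated CpGs of all 8 mice (0.176) and the lowest level of the 8 in 14 of 38 measured gene starts; the part of that coverage was not tested. Control 36 was low at Pcdhb16 (77.1%, nearest control 81.7%). Knockout 28 was high among knockouts at Pcdhb18 (64.6%, nearest knockout 55.2%) and at Pcdhgb1 (41.3%, nearest 31.6%). Knockout 25 was low over the CpGs outside the clusters (36%, nearest knockout 40.8%).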

How the results depend on the processing

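The count of calls was 0 for CpGs, windows and gene starts of the locus under every alternative run. Of the differences in group means, leaving out a mouse gave ranges from -0.344 to 1.003 points for Pcdha, -2.27 to -0.182 for Pcdhb, -0.871 to 1.29 for Pcdhg, 0.559 to 1.76 and -1.51 to 1.48 for alternate starts of Pcdha and Pcdhg, -1.67 to 0.0414 and 0.039 to 0.561 for their C-type starts, -1.39 to 1.09 for Pcdhb genes, and 2.54 to 5.59 and 2.43 to 6.41 for the constant stretches. Summing reads over CpGs moved the difference by more than the spread between mice for Pcdha (-2.63), Pcdhb (-3.54), Pcdha alternate starts (-0.489), Pcdhg C-type starts (-2.56) and the Pcdha constant stretch (9.51). Using all CpGs read in 3 mice of each group did so for Pcdha alternate starts (-1.21) and Pcdhg C-type starts (-1.05), and a 1 kb gene-start window for Pcdha alternate starts (3.28). The sign turned for Pcdhb18 at a minimum of 20 reads (1.36) and for the window at 37468001 without knockout 45 (1.98, within a range over left-out mice of -10.88 to 1.98); the cause of these moves was not tested. No paired analysis was possible because the groups share no mouse numbers. With 4 mice a group, a 20-point difference was recovered for 0% of simulated CpGs, so the absence of calls does not show equal levels; what part depth has in this was not tested.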
